A study of Mus musculus with 18 samples.

Results

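The genes followed here encode the early growth response (EGR) transcription factors Egr1, Egr2 and Egr3, their corepressors Nab1 and Nab2, and the nuclear receptor 4A (NR4A) transcription factors Nr4a1, Nr4a2 and Nr4a3. They were picked by name, through their Entrez gene numbers, and are 8 of the 28096 genes counted in every library. Crosslinking of the B cell antigen receptor (BCR) with anti-IgM raised 7 of them in WT splenic B cells at 4 hr. Their rises ran from 2.56-fold for Nab2 to 18-fold for Egr2, and 32.4% of all tested genes rose with anti-IgM. Lipopolysaccharide (LPS) raised 2, Nr4a1 and Nr4a3, against 31.2% of all tested genes, and lowered 2, Egr2 and Nab2, against 30.1%. The same genes passed the test in the same directions in Ubqln1-/- cells, and none of the 8 differed between genotypes past the threshold. Between genotypes, 0.0424% to 0.0989% of all tested genes passed, depending on the condition. When the fit also held a term for the replicate number (a block), 7 of the 8 were called with LPS in each genotype, 4 higher and 3 lower, against 68.0% of all tested genes in WT and 66.9% in KO.

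The data were RNASeq counts from 18 libraries of splenic B cells, 3 for each of 6 groups. Mice of strain C57BL/6 N, at least 8 weeks old, were either wild type (WT) or lacked exon 2 of Ubqln1 (labelled Ubiquilin-1 KO, here Ubqln1-/- or KO), a deletion made in embryonic stem cells and therefore present in every cell of the animal. B cells purified with a bead kit were left resting, treated with F(ab)2 anti-IgM (10 μg/mL) or treated with LPS of E. coli K12 (20 μg/mL), an agonist of Toll-like receptor 4, all for 4 hr. RNA of each library came from pooled triplicate wells, and the study describes its replicates as independent experiments.

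Counts per library summed to between 15368941 and 41072854 (median 23257531), and each WT LPS library was deeper than each KO LPS library. Ubqln1 itself fell in KO cells by 1.27 on the log2 scale at rest, by 1.42 with anti-IgM and by 1.44 with LPS (edgeR quasi-likelihood test, adjusted p at most 6.68e-08), and since its counts cover all exons, remaining reads do not measure an intact transcript. B cell markers (6 genes, among them Cd79a and Cd79b) summed to 4840 to 6090 CPM (counts scaled to a common library size) in resting and LPS libraries and to 2060 to 2530 CPM with anti-IgM. T cell markers, which matter here because T cells use the same EGR and NR4A genes, summed to 1.6 to 2.99 CPM over 6 genes in every library, NK cell markers to at most 0.383 CPM over 2 genes, and myeloid markers (6 genes) to 21.7 to 50.9 CPM at rest against 11.1 to 20.9 CPM after stimulation. Dendritic cell markers (3 genes) summed to 6.39 to 10.9 CPM at rest, 14.7 to 20.6 CPM with anti-IgM and 25.4 to 45.8 CPM with LPS. These did not move together: of the 2 tested, 1 rose with each stimulus in WT. Itgax, named after its value was seen, had log2 fold changes in WT of -0.60 with anti-IgM and -0.72 with LPS. Neither passed the test (adjusted p = 0.162 and 0.0918), though both did with the block (0.0147 and 0.00271). Erythroid and platelet markers summed to at most 2.26 and 2.64 CPM. No marker was at 0 in all libraries. The part of other cell types in the results below was not tested. In such bulk RNA, fewer cells of a type and less RNA per cell cannot be told apart.

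EGR proteins are zinc finger factors that bind GC-rich sites, and their genes are classic immediate early genes, transcribed without new protein synthesis when ERK acts on serum response factor and its ETS partners. NAB proteins have no DNA contact of their own and are brought to promoters by EGR proteins, where they repress, and Nab2 is itself an EGR target in many cells. NR4A proteins are orphan nuclear receptors that need no ligand, bind the NBRE element as monomers, and are induced by calcium and cyclic AMP signals through CREB and MEF2. Nr4a1, also called Nur77, is widely used as a reporter of antigen receptor signalling in B and T cells.

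In GRCm38, Egr2 lies at chr10:67535475-67542188 and Egr3 at chr14:70077203-70082614, both on the plus strand. Nab1 lies at chr1:52457294-52500679 and Nab2 at chr10:127660918-127668568, both on the minus strand. Nr4a1 lies at chr15:101254269-101274795 (plus strand), Nr4a2 at chr2:57106830-57124003 (minus strand) and Nr4a3 at chr4:48045153-48086447 (plus strand). All are protein-coding, and all 8 passed the filter on low counts.

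Promoter sequence was examined because the 3 NR4A genes, Egr2 and Nab2 rose with anti-IgM in both genotypes while Nab1 did not. That contrast comes from these same data. The RefSeq table (GRCm38.p6) held windows for 6 of the 8 genes, 10 windows in all, of which 5 are alternative starts of Egr2 that partly overlap. The 250 bases before the start are printed 5′ to 3′ for 5 genes. The Nab2 window, which held 0 of the motifs marked below, is not printed, and the printed Egr2 window is among those with a CArG box. Capitals mark the CArG box bound by serum response factor, the core TGACG of the cyclic AMP response element (CRE), and the EGR sites GCGTGGGCG and GCGGGGGCG, each searched on both strands.
Egr2, chr10:67537619-67537868, + strand: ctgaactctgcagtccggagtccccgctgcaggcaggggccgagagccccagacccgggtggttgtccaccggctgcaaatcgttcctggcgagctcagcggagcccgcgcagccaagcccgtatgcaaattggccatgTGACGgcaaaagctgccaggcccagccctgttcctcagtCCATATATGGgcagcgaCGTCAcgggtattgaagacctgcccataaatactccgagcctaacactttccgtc
Nab1, chr1:52500449-52500698, - strand: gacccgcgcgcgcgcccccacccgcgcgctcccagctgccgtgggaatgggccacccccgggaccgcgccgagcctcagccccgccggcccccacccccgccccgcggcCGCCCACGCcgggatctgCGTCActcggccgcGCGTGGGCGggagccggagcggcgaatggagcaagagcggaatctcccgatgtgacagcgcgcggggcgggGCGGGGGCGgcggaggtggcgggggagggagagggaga
Nr4a1, chr15:101266596-101266845, + strand: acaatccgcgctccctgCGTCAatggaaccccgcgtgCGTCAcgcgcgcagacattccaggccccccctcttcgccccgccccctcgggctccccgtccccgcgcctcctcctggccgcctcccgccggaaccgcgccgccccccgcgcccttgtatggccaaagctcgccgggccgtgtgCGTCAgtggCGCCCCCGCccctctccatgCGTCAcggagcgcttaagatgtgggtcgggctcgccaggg
Nr4a2, chr2:57124004-57124253, - strand: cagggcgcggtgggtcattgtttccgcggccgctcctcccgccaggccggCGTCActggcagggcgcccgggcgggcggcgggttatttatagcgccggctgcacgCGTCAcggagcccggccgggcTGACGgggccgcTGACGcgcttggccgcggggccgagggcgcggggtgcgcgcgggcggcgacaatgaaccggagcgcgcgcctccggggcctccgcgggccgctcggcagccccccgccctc
Nr4a3, chr4:48045055-48045304, + strand: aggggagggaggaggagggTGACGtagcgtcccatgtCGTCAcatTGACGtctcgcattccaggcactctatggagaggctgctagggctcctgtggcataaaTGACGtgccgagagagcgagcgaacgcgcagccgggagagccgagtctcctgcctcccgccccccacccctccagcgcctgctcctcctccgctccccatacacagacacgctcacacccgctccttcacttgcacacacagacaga
The core TGACG was found at 4 places in each of the Nr4a1, Nr4a2 and Nr4a3 windows, at 2 in the printed Egr2 window and at 1 in the Nab1 window. It was at 0 places in the Nab2 window and in 2 of the 5 Egr2 windows. Of all 32851 promoter windows of this length, 17.8% held it at 1 place or more. Distances before the start were 233, 213, 69 and 40 bases in Nr4a1 and 231, 213, 205 and 147 bases in Nr4a3. A CArG box lay 72 bases before the start in the printed Egr2 window, against 1.47% of all windows with such a box, and was not found in 1 of the other Egr2 windows or in the windows of the other 5 genes. The Nab1 window held GCGTGGGCG at 2 places (0.536% of all windows held it) and GCGGGGGCG at 1 (2.57%), the latter also at 1 place in Nr4a1. The full CRE TGACGTCA, the AP-1 site TGANTCA and the NBRE AAAGGTCA were in none of the member windows, against 1.55%, 6.75% and 1.34% of all windows. The NFAT core GGAAA (55.6% of all windows) was in the Nr4a2 window and in 4 of the 5 Egr2 windows, the ETS core GGAAG (64.1%) in the Nab2 window and 1 Egr2 window, and a MEF2 box (2.92%) in the Nr4a2 window. These matches describe letters in a window and are not evidence of binding. Their relation to the response of the genes was not tested.

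The question of which genes report BCR ligation was addressed by comparing anti-IgM with resting cells of the same genotype. Egr2, an EGR factor tied to lymphocyte restraint, stood at 23.6, 34.8 and 30.8 CPM in the resting WT libraries and at 605, 494 and 514 CPM with anti-IgM. Every stimulated library was far above every resting one, an 18-fold rise (log2 4.17 ± 0.19 SE, adjusted p = 7.22e-11, edgeR quasi-likelihood test with Benjamini-Hochberg adjustment over 14161 genes, as for all adjusted p-values here). In KO cells Egr2 went from 20.2, 24.7 and 21.0 CPM to 523, 343 and 397 CPM (log2 4.26 ± 0.192 SE).

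Egr1, the founding immediate early factor of the family, had 47.0, 42.6 and 29.2 CPM in resting WT cells and 390.3, 195.7 and 169.5 CPM with anti-IgM. The library numbered 1 was the highest with anti-IgM, and so it was in KO, at 277.5 CPM against 151 and 146, where rest had 36.3, 37.6 and 34.8 CPM. Egr1 rose 6.38-fold in WT (log2 2.67 ± 0.329 SE, adjusted p = 2.06e-06) and by 2.40 ± 0.327 SE on the log2 scale in KO. Egr3, a close relative of Egr2, rose from 39.8, 42.7 and 32.0 CPM to 315, 204 and 169.9 CPM in WT (6.01-fold, log2 2.59 ± 0.213 SE), again highest in number 1. In KO it rose from 33.3, 36 and 31.4 CPM to 260.5, 178 and 162 CPM (log2 2.58 ± 0.214 SE).

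Among the corepressors, Nab2 rose from 95.2, 103 and 76.0 CPM to 308, 217 and 179 CPM in WT (log2 1.36 ± 0.191 SE, adjusted p = 8.96e-06) and from 80.4, 76.5 and 71.6 CPM to 268, 178 and 165.5 CPM in KO (log2 1.42 ± 0.191 SE). Nab1 stood at 89.2, 105 and 107 CPM at rest and at 79.1, 90.4 and 94.1 CPM with anti-IgM in WT, and these groups overlapped. Its log2 fold change of -0.19 (95% interval -0.41 to 0.02, adjusted p = 0.103) did not pass the test, nor did that of -0.13 in KO (adjusted p = 0.265). Without WT resting replicate 1 the WT value was -0.27 (adjusted p = 0.0359). With the replicate number as a block, Nab1 fell in both genotypes, by 0.19 in WT (adjusted p = 0.00211) and by 0.13 in KO (adjusted p = 0.0256) on the log2 scale.

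Nr4a1 stood at 109, 181 and 191 CPM in resting WT cells, lowest in the library numbered 1, and reached 996, 917 and 989 CPM with anti-IgM (6.03-fold, log2 2.59 ± 0.216 SE, adjusted p = 2.52e-08). Nr4a2, the least abundant, went from 2.17, 6.19 and 9.91 CPM to 63.1, 66.5 and 93.7 CPM (11.9-fold, 95% interval of the log2 change 2.68 to 4.47). Its resting libraries spread widely, between 34 and 199 counts, so its fold is the least precise of the 8. Nr4a3 rose from 7.67, 14.0 and 17.3 CPM to 117, 127 and 154 CPM (10.1-fold, log2 3.33 ± 0.245 SE, adjusted p = 6.79e-09). The stimulated libraries of all 3 NR4A genes lay above all resting ones, and the share of all tested genes with such separation is not given here. In KO cells Nr4a1 went from 92.6, 135 and 160.5 CPM to 860.2, 671 and 706 CPM, a log2 change of 2.53 ± 0.215 SE. Nr4a2 went from 2.60, 5.19 and 6.26 CPM to 60.4, 44.8 and 53.1 CPM (log2 3.49 ± 0.432 SE) and Nr4a3 from 9.23, 11.2 and 10.1 CPM to 119, 91.8 and 102 CPM (log2 3.36 ± 0.248 SE). These rises are set against those in WT by interaction terms further on.

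At an adjusted p under 0.05, 7 of the 8 genes were higher with anti-IgM in WT, against 32.4% of all tested genes, and 7 in KO, against 32.9%. At the thresholds of the study (absolute log2 fold change over 2 and adjusted p under 0.001), 6 were higher in WT, against 1.72% of all tested genes, and 6 in KO, against 1.79%. These were the 3 EGR and the 3 NR4A genes in both genotypes. The median log2 fold change of the 8 was 2.63 in WT and 2.55 in KO, where the median over all genes was -0.01 and -0.02. Within replicate numbers, number 1 gave the largest anti-IgM to resting ratio for 7 of the 7 genes other than Nab1 in WT and for 7 in KO, for example log2 4.86 for Nr4a2 against 3.42 and 3.24 in the WT numbers 2 and 3. Without the 6 libraries numbered 1, the same 6 genes still passed the thresholds of the study in both genotypes, at log2 3.93 for Egr2 and 2.33 for Egr1 in WT.

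**Figure D1:**
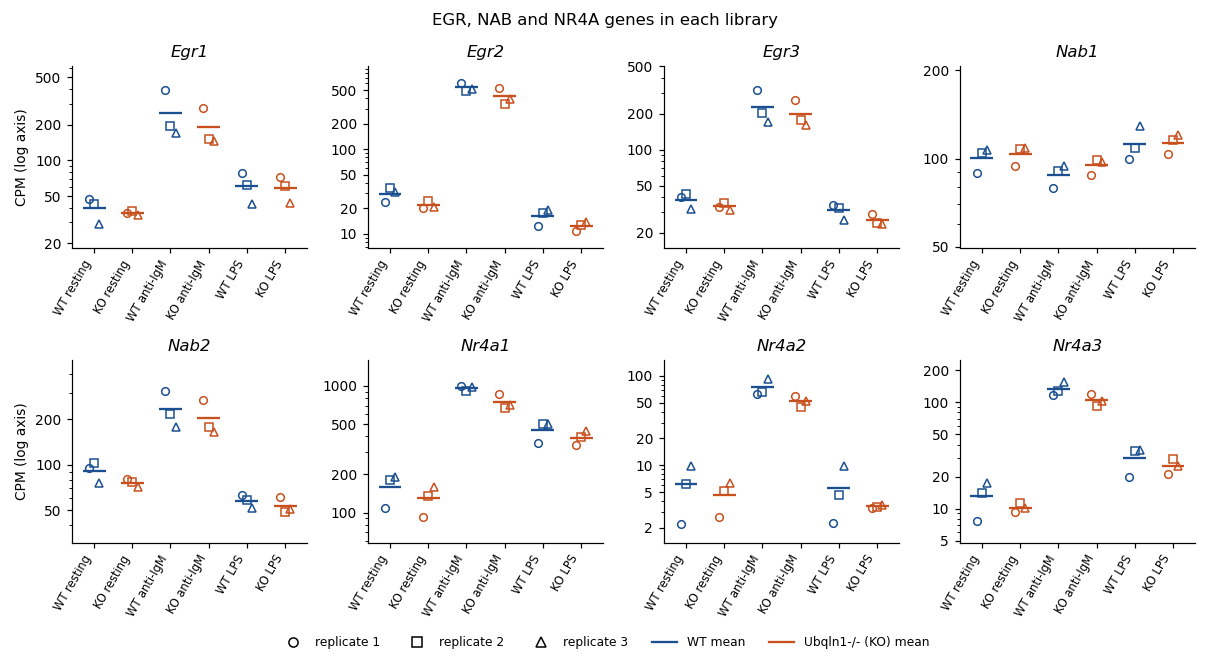
CPM of each gene (log axis) in the 18 libraries, by group, with a point for each library, its shape for the replicate number, and a line at the mean of 3. With anti-IgM every gene but Nab1 sits above its resting libraries in both genotypes, and for Egr1 the libraries numbered 1 (390.3 and 277.5 CPM) lie above the others.

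LPS, which acts through a different receptor on the same cells, was compared with the same resting libraries, so the 2 responses share their controls. Nr4a1 rose in WT from the resting values above to 354, 501 and 501 CPM (2.82-fold, log2 1.5 ± 0.208 SE, adjusted p = 1.08e-05), and in KO from 92.6, 135 and 160.5 CPM to 339, 392.5 and 438 CPM (log2 1.59 ± 0.209 SE). Nr4a3 rose to 19.9, 35.0 and 35.5 CPM in WT (2.28-fold, adjusted p = 0.000381) and by 1.32 ± 0.249 SE on the log2 scale in KO. Groups of both genes did not overlap with rest in either genotype. The share of all tested genes with such separation is not given here, and 31.2% in WT and 30.6% in KO were called higher with LPS.

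Egr2 moved the other way with LPS. Its 12.2, 17.4 and 19.1 CPM in WT all lay below the resting libraries (log2 -0.88 ± 0.182 SE, adjusted p = 0.000501), as did 10.8, 12.6 and 13.9 CPM in KO (log2 -0.82 ± 0.193 SE, adjusted p = 0.00157). Nab2 also fell, to 63.0, 58.5 and 51.8 CPM in WT (log2 -0.66 ± 0.191 SE, adjusted p = 0.00632) and to 61.1, 49.0 and 50.8 CPM in KO (log2 -0.51 ± 0.194 SE, adjusted p = 0.0311). The KO call for Nab2 was lost without KO resting replicate 1 (adjusted p = 0.094), KO resting replicate 2 (0.0696), KO LPS replicate 2 (0.104) or KO LPS replicate 3 (0.0837).

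The other 4 genes did not pass the test with LPS. Egr1 had 77.6, 62.1 and 43.3 CPM in WT and overlapped with rest (log2 0.63, 95% interval -0.05 to 1.30, adjusted p = 0.0988). In KO it had 72.4, 60.6 and 44.1 CPM, all above rest (log2 0.70, adjusted p = 0.0693). Egr1 passed the test without WT LPS replicate 3 in WT (log2 0.82, adjusted p = 0.0457) and without KO LPS replicate 3 in KO (log2 0.87, adjusted p = 0.0425). It also passed in fits of the compared groups alone (adjusted p = 0.0464 in WT and 0.00234 in KO). With libraries numbered 2 and 3 only it passed too (0.0407 and 0.047). Egr3 in KO had 29.0, 24.3 and 23.9 CPM, all below rest (log2 -0.39, adjusted p = 0.133). It passed in a fit of these groups alone (adjusted p = 0.0058) and with libraries numbered 2 and 3 only (0.0179). Log2 fold changes in WT were -0.30 for Egr3 (adjusted p = 0.22), 0.16 for Nab1 (0.168) and -0.19 for Nr4a2 (0.739), and the interval of Nr4a2, -1.13 to 0.76, left room for a sizeable change either way. With the replicate number as a block, 7 of the 8 genes passed the test in WT (68.0% of all tested genes did) and 7 in KO (66.9%), with Egr1 up by 0.61 in WT (adjusted p = 0.00345), Egr3 at -0.32 (adjusted p = 0.0377) and Nab1 at 0.16 (adjusted p = 0.00673), and with Egr1 at 0.67, Egr3 at -0.40 and Nab1 at 0.13 in KO. Nr4a2 stayed outside, at -0.21 in WT (adjusted p = 0.61).

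At an adjusted p under 0.05 without the block, LPS raised 2 of the 8 genes in WT, against 31.2% of all tested genes, and 2 in KO, against 30.6%, and lowered 2 in WT, against 30.1%, and 2 in KO, against 30.2%. At the thresholds of the study 0 of 8 changed in WT (1.80% of all tested genes) and 0 in KO (1.74%). DESeq2 and limma with voom also gave 0 at those thresholds, and edgeR gave 4 in WT and 5 in KO at an unadjusted p under 0.05. The share of all tested genes at that unadjusted rule is not given here. At an adjusted p under 0.05 in either direction it was already 61.2% in WT and 60.7% in KO.

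**Figure D2:**
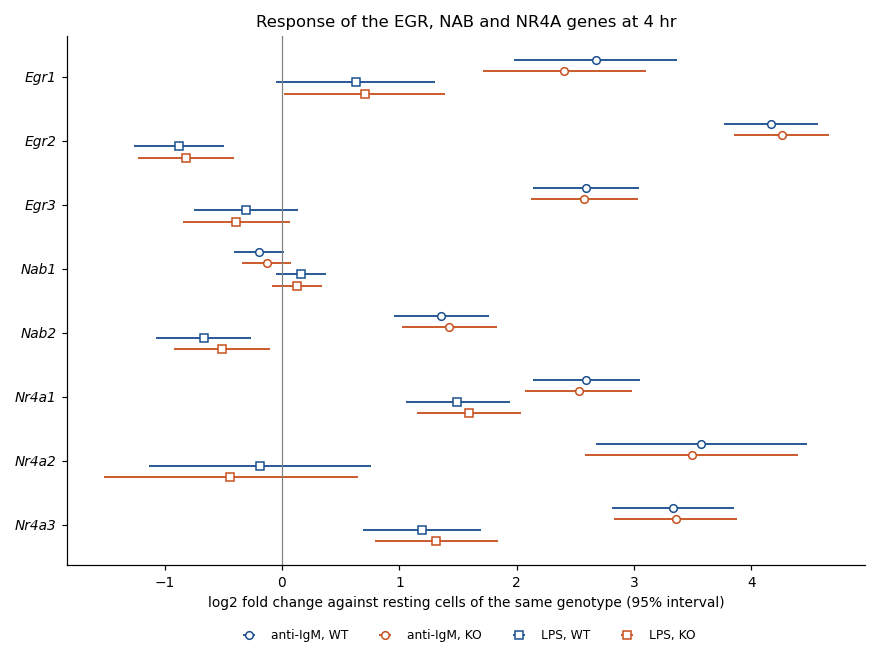
Log2 fold change of each gene against resting cells of the same genotype, with its 95% interval from the edgeR fit, for anti-IgM (circles) and LPS (squares) in WT (blue) and KO (orange). Anti-IgM values lie at 1.36 or above except for Nab1, LPS values are at or below 1.59, and the WT and KO intervals of each response overlap.

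A direct comparison of LPS with anti-IgM set the stimuli against each other without the resting cells. Egr2 showed the widest gap, 33.1-fold lower with LPS in WT (log2 -5.05 ± 0.198 SE, adjusted p = 1.53e-11) and log2 -5.08 ± 0.203 SE in KO. Nr4a2 was 13.5-fold, Egr3 7.42-fold, Nr4a3 4.40-fold, Egr1 4.13-fold and Nab2 4.06-fold lower with LPS in WT. Nr4a1 had the smallest gap of the 7, 2.14-fold (log2 -1.10 ± 0.205 SE, adjusted p = 0.000473), and Nab1 was 1.28-fold higher with LPS in WT (adjusted p = 0.0107) but at log2 0.26 in KO with an adjusted p of 0.0622.

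With LPS, 7 of the 8 genes were lower than with anti-IgM in WT, against 15.0% of all tested genes, and 7 in KO, against 14.5%, while 1 was higher in WT, against 17.4%. At the thresholds of the study 6 were lower in WT, against 1.11%, and 4 in KO, against 1.02%. The 6 in WT were Egr1, Egr2, Egr3, Nab2, Nr4a2 and Nr4a3. Several of them lay close to the fold threshold, and without the libraries numbered 1 the WT count was 3 (Egr2, Egr3 and Nr4a2), with Nr4a3 at -1.998, Nab2 at -1.84 and Egr1 at -1.79. With the block, Nab1 was higher with LPS in KO too (log2 0.25, adjusted p = 0.000367), as it was without KO LPS replicate 1 (log2 0.31, adjusted p = 0.0467). The WT call for Nab1 was lost without WT anti-IgM replicate 1 (adjusted p = 0.0551) or WT LPS replicate 3 (0.0709), and in a fit of these groups alone (0.0605).

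Levels were compared between genes per length, as RPKM, which is CPM per kilobase of the deposited gene width, with TMM-scaled library sizes. Nr4a1 was the most abundant in all 6 groups, at 64.7 ± 18.1 RPKM (SD, n = 3) in resting WT cells, 391 ± 17.6 with anti-IgM and 183 ± 34.2 with LPS, and its range overlapped with that of no other gene in any group. The resting WT order went on with Nab2 (35.5), Egr3 (27.0), Nab1 (19.7), Egr1 (12.9), Egr2 (10.0), Nr4a3 (6.90) and Nr4a2 (1.82 RPKM). Nab2 and Egr3, Egr1 and Egr2, and Egr2 and Nr4a3 overlapped in range and were thus not separated by their spread.

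Anti-IgM reordered the genes in WT cells. Egr2 moved from the sixth place to the second, at 181 ± 19.9 RPKM, overlapping in range with Egr3 at 162 ± 53.5. Nab1 dropped to the last place at 17.3 ± 1.53 RPKM in WT. In KO with anti-IgM the last was Nr4a2 at 15.8 RPKM, overlapping in range with Nab1 at 18.6 RPKM. In WT, Nab2 (91.1), Egr1 (82.0) and Nr4a3 (70.5 RPKM) followed Egr3, with overlapping ranges between Nab2 and Egr1 and between Egr1 and Nr4a3. With LPS in WT, Nab2, Nab1, Egr3, Egr1 and Nr4a3 lay between 16.0 and 22.4 RPKM with neighbours that overlapped. Egr2 (5.48) and Nr4a2 (1.66 RPKM) stood below them. The deposited widths of Egr3 (1416 bases) and Nr4a3 (1884 bases) are 32.1% and 31.5% of the exon bases that GENCODE lists for these genes, against 68.5% to 124% for the other 6, so their place in the order depends on that annotation.

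**Figure D3:**
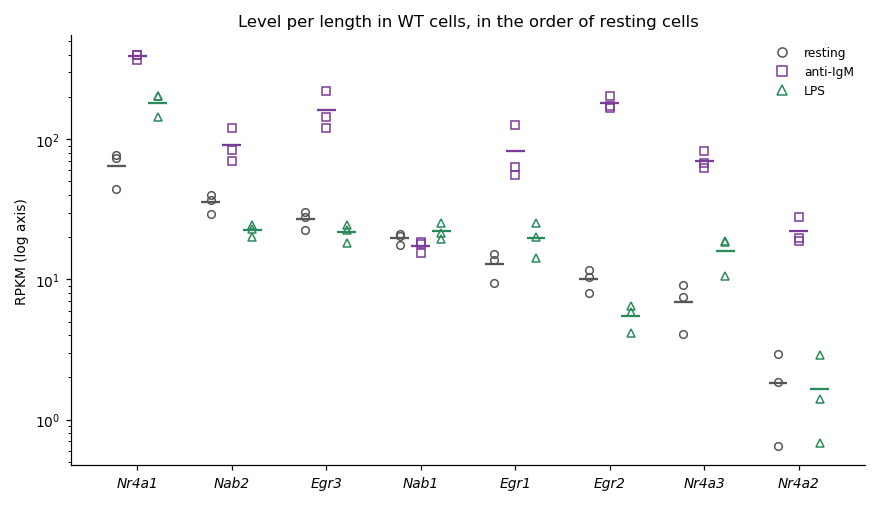
RPKM of each gene (log axis) in the 9 WT libraries, in the order of the resting means, with a point for each library and a line at the mean of 3. Nr4a1 is on top in all 3 conditions, and Egr2 moves from 10.0 RPKM at rest to 181 with anti-IgM and 5.48 with LPS.

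Loss of Ubqln1 was examined in each condition, since the study asked how BCR signalling fares without it. Nr4a1 with anti-IgM had 996, 917 and 989 CPM in WT and 860.2, 671 and 706 CPM in KO, so every KO library lay below every WT library (log2 -0.38, 95% interval -0.80 to 0.05, adjusted p = 0.997). Nr4a2 did not overlap either, with 63.1, 66.5 and 93.7 CPM in WT and 60.4, 44.8 and 53.1 CPM in KO (log2 -0.49, 95% interval -1.25 to 0.26, adjusted p = 0.997). Such separation downward was seen in 2 of the 8 genes and in 5.08% of all tested genes with anti-IgM.

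Egr2 came nearest to a difference. Its log2 fold change between KO and WT was -0.44 at rest (95% interval -0.83 to -0.06, adjusted p = 1), -0.35 with anti-IgM (-0.70 to -0.01, adjusted p = 0.96) and -0.38 with LPS (-0.79 to 0.02, adjusted p = 1). Those at rest and with anti-IgM were the only intervals, 2 of 24, to exclude 0 over the 8 genes and 3 conditions. None of the 8 passed the test in any condition, where 0.0565% of all tested genes did at rest, 0.0989% with anti-IgM and 0.0424% with LPS. Of the 24 values, 21 were below 0, and 7 genes, all but Nab1, were below 0 in all 3 conditions, with medians of -0.29, -0.35 and -0.23 where the median over all genes was 0.00. The genes share their libraries, so these values are not independent of each other. Plasma cell markers (Sdc1 and Jchain) also summed to less in KO, at 167 to 191 CPM at rest against 227 to 433 in WT. The sums were 141 to 174 against 195 to 384 with anti-IgM, and 83.9 to 111 against 130 to 304 with LPS. Of these 2 markers 0 passed the test between genotypes in any condition. Their part in the values of the 8 genes was not tested.

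In same-numbered libraries the KO value was the lower in 18 of 24 gene and number pairs at rest, in 20 of 24 with anti-IgM and in 19 of 24 with LPS. These 24 are 8 genes in the same 3 pairs of libraries, so they are not independent replicates. The share over all tested genes is not given here. At rest the WT and KO libraries numbered 2 deviated together only weakly (correlation 0.0826). With the replicate number as a block the 8 genes still did not pass, with a lowest adjusted p of 0.338 over the 3 conditions, whereas the genes called over the whole table went from 8 to 49 at rest, from 14 to 94 with anti-IgM and from 6 to 125 with LPS. At an unadjusted p under 0.05 edgeR gave 1 of the 8 genes at rest, 1 with anti-IgM and 0 with LPS, and DESeq2 gave 1 in each condition, against 4.22%, 5.14% and 3.93% of all tested genes with edgeR and 3.68%, 4.72% and 3.37% with DESeq2. With the block edgeR gave 2, 4 and 0 of the 8, against 8.47%, 11.2% and 8.35% of all tested genes. The intervals of the 24 values ran from -1.69 to 0.61 at their widest.

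**Figure D4:**
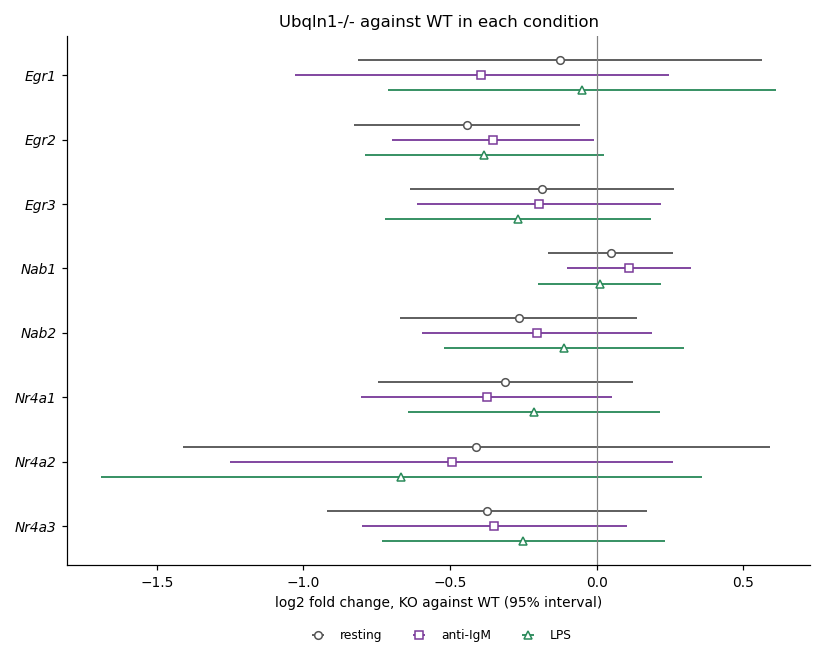
Log2 fold change of each gene in KO against WT with its 95% interval, in resting (circles), anti-IgM (squares) and LPS cells (triangles). The points of all genes but Nab1 lie below 0, and all intervals but those of Egr2 at rest and with anti-IgM include 0.

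Whether Ubqln1 altered the size of a response was tested with interaction terms. The difference between the KO and WT responses ranged from -0.27 to 0.15 on the log2 scale over the 8 genes and both stimuli, with unadjusted p-values between 0.554 and 0.968. With either stimulus, 0 of 8 genes and 0 of 14161 tested genes passed at an adjusted p under 0.05. Over all genes 140 (anti-IgM) and 220 (LPS) had an unadjusted p under 0.05 in edgeR, and DESeq2 and limma with voom also called 0. Intervals of the 16 differences reached from -1.69 to 1.19, both ends belonging to Nr4a2 with LPS.

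Related genes were counted from lists of pathway members, to be read against the 32.4% of all tested genes that rose and the 32.2% that fell with anti-IgM in WT, and the 31.2% and 30.1% with LPS. Among 10 ERK, TCF and SRF inputs, 1 rose with anti-IgM in WT and 6 fell, with a median log2 fold change of -0.39. The gene that rose was Srf, serum response factor itself (log2 0.34, adjusted p = 0.00108), named after its value was seen. Among 17 calcineurin, NFAT, MEF2 and CREB inputs, 2 rose and 10 fell. Those that rose were Rcan1, a calcineurin inhibitor that calcineurin signalling itself induces (log2 1.53 ± 0.135 SE), and Nfatc1 (log2 0.93), also named after their values were seen. With LPS in WT the same lists had 3 higher and 5 lower of 10, and 3 higher and 9 lower of 17. With the block Crem, a cyclic AMP response factor named after its values were seen, was also called higher with anti-IgM (log2 0.58, adjusted p = 6.89e-05) and lower with LPS (log2 -0.34, adjusted p = 0.00856), and the calcineurin inhibitor gene Cabin1, likewise named, was called higher with LPS (log2 0.12, adjusted p = 0.0495). Of the family relatives and NR4A partners, Egr4, Wt1 and Rxrg did not pass the expression filter (at most 15 counts in any library), Rxra fell with anti-IgM in WT (log2 -0.51, adjusted p = 0.0308) and Rxrb did not pass the test (log2 -0.14, adjusted p = 0.1), though it did with the block (adjusted p = 0.0379).

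Of 17 other immediate early genes, 8 rose and 2 fell with anti-IgM in WT, with a median of 0.47, against 32.4% and 32.2% of all tested genes. Fosl2, an AP-1 subunit, rose the most, from 4.73, 8.61 and 7.42 CPM to 60.8, 91.6 and 91.5 CPM (log2 3.52), and stood at 4.00, 6.61 and 8.62 CPM with LPS (log2 -0.14, adjusted p = 0.661). Atf3, a stress-induced CREB family factor, rose with anti-IgM (log2 2.50) and with LPS (log2 1.67), and Fosl1, another AP-1 subunit, rose by 2.35 and 1.09. Gadd45b, a stress sensor induced by NF-κB, rose by 2.08 with LPS and by 0.41 with anti-IgM. With LPS 9 of the 17 rose and 2 fell, against 31.2% and 30.1%. With the block Fosb, an AP-1 subunit named after its value was seen, also passed with anti-IgM (log2 0.53, adjusted p = 0.0101). Fos itself, at 6.38, 5.64 and 5.67 CPM with anti-IgM against 1.92, 5.10 and 5.28 CPM at rest, did not pass the test at 4 hr (log2 0.49, adjusted p = 0.242).

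Of 10 genes tied to EGR or NR4A factors in lymphocytes, 6 rose and 2 fell with anti-IgM in WT (median 0.61), and 4 rose and 1 fell with LPS (median 0.33). Among all tested genes 32.4% rose and 32.2% fell with anti-IgM, and 31.2% and 30.1% with LPS. With the block Cd86, a costimulatory ligand named after its value was seen, also passed with LPS (log2 0.73, adjusted p = 1.84e-06). The chemokine gene Ccl4 rose from 6.65, 9.35 and 7.52 CPM to 98.0, 88.5 and 81.4 CPM with anti-IgM (log2 3.49), and Ccl3 rose by 3.03 on the log2 scale. With LPS these rose by 1.92 and 2.29. Batf, an AP-1 partner factor, and Icam1, an adhesion molecule, rose by 3.02 and 2.51 on the log2 scale with LPS and by 0.70 and 0.51 with anti-IgM. Without the block no gene of these 5 lists differed between genotypes past the threshold. With it 3 did, each with anti-IgM and each named after its value was seen, against 0.664% of all tested genes. The ETS factor gene Elk3 (log2 0.40, adjusted p = 0.0201) and Hdac7, a deacetylase bound by MEF2 (log2 0.44, adjusted p = 0.0303), were higher in KO, and Fosl2 was lower (log2 -0.49, adjusted p = 0.0215).

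**Figure D5:**
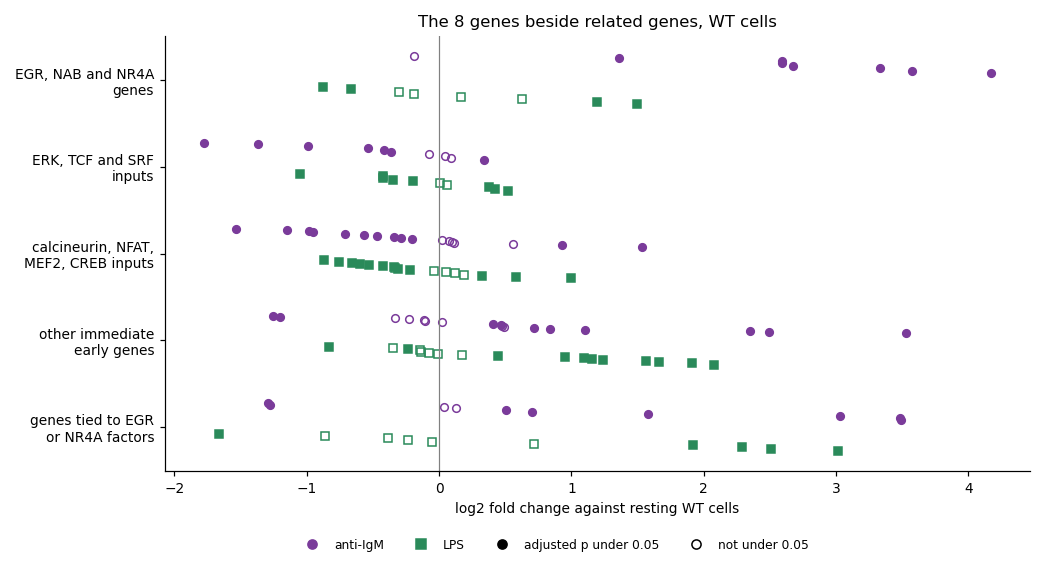
Log2 fold change against resting WT cells for the 8 genes and for the genes of 4 related lists, with anti-IgM (purple circles) and LPS (green squares), filled where the adjusted p is under 0.05. Of the 8 genes, 6 lie above 2 with anti-IgM, and the pathway inputs lie between -1.77 and 1.53.

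Over the 18 libraries, log2 CPM of the members were more alike within some pairs than others, which is given as a description, since the points share stimuli, genotype and replicate number. Egr2 and Egr3 had a Pearson r of 0.98, Egr3 and Nab2 of 0.98, and Nr4a1 and Nr4a3 of 0.96, whereas Egr2 and Nr4a1 had 0.69 and Nab2 and Nr4a1 0.56. Nab1 had a negative r with each of the other 7, from -0.83 with Nab2 to -0.23 with Nr4a1. Among 9640 tested genes with at least 10 CPM in their highest group, those most like each member by this measure were Rabgef1 (0.989) and Bmt2 (0.986) for Egr1, Dnase2a (0.990) and Bri3 (0.989) for Egr2, and Renbp and Tacc2 (both 0.993) for Egr3. For the corepressors they were Mpeg1 (0.955) and Pde4d (0.946) for Nab1, and Tceal9 (0.985) and Dnase2a (0.983) for Nab2. For the NR4A genes they were Zc3h12c (0.986) and Mafg (0.983) for Nr4a1, Fyn (0.986) and Smad3 (0.983) for Nr4a2, and Pfkp (0.990) and Anp32e (0.988) for Nr4a3. Only 6 of the 16 stayed among the nearest 5 by Spearman rank correlation.

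Nab2 shares part of its sequence with neighbours, which bears on its counts. In GENCODE (GRCm38) its 3′ end overlaps the last 40 bases of Stat6 on the plus strand, its 5′ part shares 151 exon bases with Nemp1, and the antisense gene Gm16229 overlaps 1050 exon bases, 35.7% of the exon bases of Nab2. The library kit does not mark strand, so reads from these parts cannot be assigned. Stat6 rose with anti-IgM (log2 0.42) and with LPS (log2 0.67) in WT, the latter opposite to Nab2, and Nemp1 did not pass the test with either (log2 0.14 and -0.10). Gm16229 was not analysed here.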

How the data were processed

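RNASeq was performed by the study on 18 libraries of splenic B cells, 3 per group. Per the labels and the methods of the study, the authors aligned the reads with GSNAP to GRCm38 and summarised them per gene in R 3.2.2, and deposited for each library a table of whole-number counts per Entrez gene with the gene width and RPKM. Gene names were not part of those tables, and 25035 of 28096 gene numbers (89.1%), holding 95.76% to 96.17% of counts, were given symbols from RefSeq. The gene annotation version and the strand setting of the counting are not given in the sources used here. The deposited RPKM values served only as a check of the counts, and RPKM here was computed from counts, widths and TMM-scaled library sizes.

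Counts were fitted with edgeR 4.0.16 (R 4.3.3): TMM normalisation (factors 0.958 to 1.04), filterByExpr (14161 genes kept), and the quasi-likelihood test on all 18 libraries with a term per group, with Benjamini-Hochberg adjustment over all genes kept. Standard errors were taken as the fold change over the root of the F statistic, and intervals are 95%. The script was tested on simulated data. Log2 CPM for correlations used a prior count of 2. The thresholds of the study were read as log2. Total counts ran from 15368941 to 41072854, and the biological coefficient of variation was 10.1%.

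Replicate numbers 2 and 3 come from the labels and number 1 was assigned by elimination. Same-numbered libraries deviated together from their group means: 43 of 45 pairs had a correlation over 0.1 (mean 0.266), against a mean of -0.132 in 90 pairs with different numbers, and 18 of 18 libraries correlated best with their own number. The rule set beforehand asked for over 0.1 in every same-numbered pair and was not met in full. WT resting 2 stood at 0.0826 with KO resting 2 and at 0.055 with KO anti-IgM 2. Every pair passed in all comparisons but KO against WT at rest and the interactions, and the study describes independent experiments. It names a paired t test for its RNASeq levels of c-Myc and Ccnd2, and single-term models for its differential expression. A fit with the number as a block is thus printed where it changed a call of a member. It is also printed where it changed a call of a gene of the 5 related lists between stimulus and rest in WT or between genotypes, and for Itgax. Blocked counts for KO against WT at rest are printed although that comparison did not pass.

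The genes and lists were chosen with earlier results of these data known. Named beside the 8 genes were, per list, up to 4 genes past the thresholds of the study in WT, the 2 genes most correlated with each member, genes that overlap a member, and Ubqln1, with exceptions marked. Alternatives were limma 3.58.1 with voom, DESeq2 1.42.0, RLE normalisation, other filters, the block, fits of only the groups compared, and leaving out each library. Promoter windows were from RefSeq (GRCm38.p6) and positions from GENCODE. A further B cell marker is not reported here.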

Additional observations from a re-analysis of the deposited data

How the results depend on the processing

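Under voom, DESeq2, RLE normalisation, no filter or at least 10 counts in every sample, 72 of 72 log2 fold changes of the 8 genes kept their direction and their side of the threshold. Fits of only the groups compared did so for 67, the replicate block for 63, and leaving out 1 library for 409 of 432. With the block, 7 of the 8 genes in WT and 7 in KO were called between LPS and rest, and, beside those and the Nab1 calls printed with the results, it changed no other call of a member. Using only libraries numbered 2 and 3, chosen after seeing the data, 3 of the 8 passed the study thresholds between LPS and anti-IgM in WT, and Nab1 KO against WT with LPS turned to -0.025.

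Leaving out 1 library turned only values that had not passed the test. For KO against WT with anti-IgM, Egr1 ranged from -0.76 to 0.070, Egr3 from -0.44 to 0.10 and Nab2 from -0.46 to 0.041. With LPS, Egr1 ranged from -0.24 to 0.16 and Nab1 from -0.070 to 0.12, and at rest Nab1 from -0.046 to 0.10 and Nr4a2 from -0.78 to 0.062. Nr4a2 with LPS against rest in WT ranged from -0.82 to 0.31.

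Over all genes, requiring at least 10 counts in every sample left fewer genes to test, and 346, 125 and 197 passed the study thresholds in WT (anti-IgM against rest, LPS against rest, LPS against anti-IgM) and 335, 124 and 170 in KO. Fitting only the groups compared gave 215 between LPS and anti-IgM in WT. For KO against WT at rest, with anti-IgM and with LPS, DESeq2 called 32, 47 and 51 genes, the block 49, 94 and 125, only the groups compared 5, 2 and 2, and libraries 2 and 3 only 2, 2 and 2. Leaving out 1 library gave 2 to 11, 2 to 10 and 2 to 37, and 0 to 10 for the difference between the KO and WT responses to LPS. The cause of these shifts was not tested. With 3 libraries per group the intervals of Nr4a2 remained the widest.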
